A study of Mus musculus with 4 samples.

Results

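The 10 genes described here, Mpo, Elane, Prtn3, Ctsg, Ms4a3, Serpinb1a, Srgn, Prss57, Igfbp4 and Nkg7, were taken by name as genes of azurophil (primary) granules and of granulocyte-monocyte progenitors, out of 27179 genes in the deposited values. All 10 matched an NCBI mouse gene number, and all 10 passed the filter on low values, as did 13230 genes in all. RNA was sequenced from leukemia-initiating cells (LICs) sorted from bone marrow of C57BL/6 mice aged 6 weeks by their labels, in 2 WT-labelled libraries and 2 labelled CD274-null (genotype CD274-/-). The sequencing methods of the study speak of RNA from tissue and mention no sort, while its results name LICs. The labels call the cells LSC, and the methods of the study define LICs as Mac-1+/c-Kit+ cells of its MLL-AF9 model. In that model, which all groups share, Lin- fetal liver cells carry a retrovirus for the fusion oncogene MLL-AF9 and a yellow fluorescent protein, and grow in irradiated C57BL/6 hosts, whose bone marrow can still hold host cells. The round of transplantation and the number of mice behind a library are not given in the sources used here, so the p-values below measure only the spread between these libraries.

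Azurophil granules are lysosome-like organelles that neutrophil precursors fill at the promyelocyte stage, before the secondary and tertiary granules appear. Mpo encodes myeloperoxidase, which makes hypochlorous acid from hydrogen peroxide, and Elane, Prtn3, Ctsg and Prss57 encode neutrophil elastase, proteinase 3, cathepsin G and neutrophil serine protease 4. The proteoglycan serglycin (Srgn) holds such cationic proteins in the granule, and the cytosolic inhibitor encoded by Serpinb1a neutralises neutrophil serine proteases. MLL-AF9 leukemia cells are known to resemble granulocyte-monocyte progenitors, where the granule genes are first transcribed under C/EBP, PU.1, RUNX1 and MYB factors.

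Promoter sequence is shown for the peroxidase, for the adjacent elastase and proteinase 3 genes and for Nkg7, because Mpo and Nkg7 differed between the groups by the call used below while Elane and Prtn3 did not. Each run gives the 250 bases before the RefSeq start site (GRCm38.p6), on the strand of the gene, 5′ to 3′. Capitals mark matches, on either strand, to GAGGAA (the core bound by PU.1), TGTGGT (RUNX) and AACGG or AACTG (MYB); TTNNGCAAT and TTNNGAAAT (C/EBP) had no match in these 4 runs. The stretches are chr11:87793534-87793783, chr10:79886062-79886311, chr10:79879417-79879666 and chr7:43436888-43437137, all on the plus strand.
Mpo: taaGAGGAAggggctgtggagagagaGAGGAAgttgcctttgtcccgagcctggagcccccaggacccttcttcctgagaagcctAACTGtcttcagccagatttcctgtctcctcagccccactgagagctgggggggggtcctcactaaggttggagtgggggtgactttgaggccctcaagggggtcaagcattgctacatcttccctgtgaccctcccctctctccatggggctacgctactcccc
Elane: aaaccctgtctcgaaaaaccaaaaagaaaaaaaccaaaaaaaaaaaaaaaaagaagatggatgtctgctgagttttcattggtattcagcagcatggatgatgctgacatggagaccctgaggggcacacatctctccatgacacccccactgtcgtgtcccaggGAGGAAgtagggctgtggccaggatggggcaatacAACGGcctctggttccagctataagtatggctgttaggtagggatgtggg
Prtn3: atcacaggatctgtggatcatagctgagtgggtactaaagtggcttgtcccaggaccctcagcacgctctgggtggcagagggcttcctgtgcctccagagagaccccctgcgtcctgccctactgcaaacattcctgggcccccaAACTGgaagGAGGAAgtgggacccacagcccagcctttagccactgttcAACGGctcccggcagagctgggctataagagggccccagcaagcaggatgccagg
Nkg7: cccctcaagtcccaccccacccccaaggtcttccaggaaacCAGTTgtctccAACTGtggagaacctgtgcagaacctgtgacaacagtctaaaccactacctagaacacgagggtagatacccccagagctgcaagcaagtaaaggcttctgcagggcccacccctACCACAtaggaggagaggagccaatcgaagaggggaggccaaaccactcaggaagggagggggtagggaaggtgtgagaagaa

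Elane and Prtn3 share an arrangement, GAGGAA followed by AACGG, with first bases 85 and 50 bases before the start in Elane and 95 and 55 bases before it in Prtn3. In Mpo the 2 GAGGAA matches lie farther out, 247 and 224 bases before the start. Windows reaching from 250 bases before to 50 bases after the start were found for 8 of the 10 genes, 9 windows in all because Srgn has 2. GAGGAA was in 5 of the 9 windows and in 28.3% of all 32851 windows of that length, AACGG in 3 of 9 and in 17.4%, AACTG in 7 of 9 and in 44.8%, and TGTGGT in 3 of 9 and in 16.8%. TTNNGCAAT was in 1 of 9, that of Ms4a3, and in 2.18% of all windows, and TTNNGAAAT was in 0 of 9 and in 4.73%. In Ms4a3 the C/EBP match overlapped a GAGGAA match, and no other matches overlapped. These matches describe letters in the windows and not bound sites.

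The deleted gene did not separate the groups. Cd274 had 2.80 and 0.945 FPKM (fragments per kilobase of transcript, scaled to the mapped reads of the library) in the WT-labelled libraries and 1.43 and 2.29 in the CD274-null-labelled pair, so every direction below rests on the labels. Recovered whole reads (a relative scale shared by all 4 libraries) summed to between 8398499 and 11022328 per library. The sort and model genes were present in every library, with Itgam (Mac-1) at 100.2 to 174 FPKM and Hoxa9 at 71.3 to 75.8. Kit was lowest in WT replicate 1, at 6.59 FPKM, against 18.2 in WT replicate 2 and 16.2 and 19.5 in the CD274-null-labelled pair. Sex-linked genes did not overlap between the labelled groups. Xist had 2.57 and 51.1 FPKM under the label WT and 107 and 68.7 under the label CD274-null, and the Y-linked genes Ddx3y, Eif2s3y, Kdm5d and Uty summed to 86.0 and 66.2 against 0.0460 and 29.4. Immunoglobulin genes differed between the groups, and 3 of the 4 tested markers of B and plasma cells, out of 12 listed, were called higher (Igkc, Jchain and Ighm). Igkc and Jchain were called in every other fit that tested them, and Ighm was not called without WT replicate 1, without CD274-null replicate 2 or without moderation of the variance. That list summed to 31.0 and 59.4 FPKM against 313 and 402, while Pax5, Ebf1 and Ms4a1 were listed at 0 in each WT-labelled library and did not exceed 0.416 in the others. The part of these differences in the results below was not tested. In bulk RNA, fewer cells of a type and less RNA per cell cannot be told apart.

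Granule genes were among the most abundant RNAs of these cells. The 10 genes held 2.10% and 2.01% of the summed FPKM in the WT-labelled libraries and 2.55% and 1.89% in the CD274-null-labelled pair, and 7 of the 10 ranked 231 or better in each library. Elane ranked between 6 and 10 and Prtn3 between 9 and 12 in every library. In the WT-labelled libraries, Elane (2780 to 3818 FPKM) and Prtn3 (2565 to 2823) overlapped each other, as did Srgn (1306 to 1767) and Ctsg (1167 to 1712). Ms4a3, Mpo and Serpinb1a followed between 254 and 551 FPKM and overlapped, and Igfbp4, Prss57 and Nkg7 lay between 11.7 and 48.2. In the CD274-null-labelled libraries the mean of Mpo came next after those of Elane and Prtn3, where it overlapped Srgn and Ctsg and no longer overlapped Ms4a3 or Serpinb1a.

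**Figure D1:**
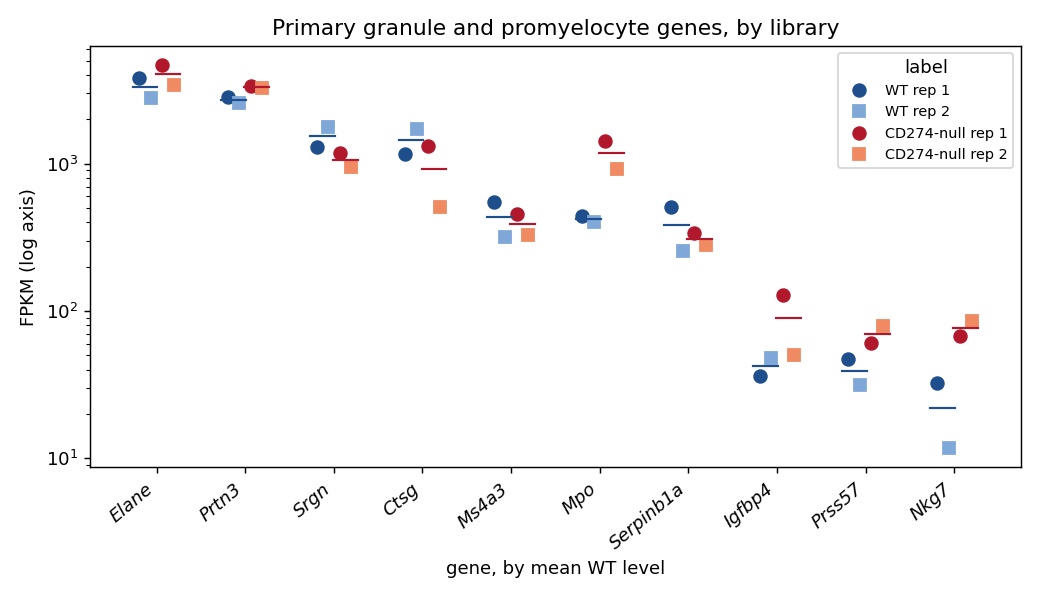
FPKM of each of the 10 genes (log axis) in the 2 WT-labelled libraries (blue) and the 2 labelled CD274-null (red and orange), with lines at the group means of 2 libraries. Mpo sits at 403 and 444 in the blue points and at 925 and 1427 in the red and orange ones, while the points of Elane, Ctsg, Ms4a3 and Serpinb1a interleave.

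To compare the groups, log2(FPKM + 0.5) was fitted with limma, and a gene was called when its unadjusted p was under 0.01 and it differed by more than 1.5-fold. By this rule 2 of the 10 genes were called higher in the CD274-null-labelled libraries, Mpo and Nkg7, and 0 were called lower. Among all 13230 tested genes 2.39% were called higher and 1.24% lower, 3.63% in either direction. After Benjamini-Hochberg adjustment over all tested genes, 0 of the 10 had an adjusted p under 0.05 from limma (background 0.0756%), and 0 did with limma's voom on recovered reads, while 3 had an unadjusted p under 0.05 (background 13.7%). The 2 CD274-null-labelled libraries both lay above both WT-labelled libraries for 5 of the 10 genes (background 25.6%) and both below for 1 (background 21.8%). The median log2 fold change of the 10 genes was 0.30, against 0.012 over all tested genes. It was 0.088, against 0.014, after correction for GC content, which had a median of 53.6% in transcripts of the 10 genes and 49.8% over tested genes, and it ran from 0.15 to 0.45 when each library was left out (0.15 without WT replicate 2, 0.16 without CD274-null replicate 1 and 0.45 without WT replicate 1).

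Mpo (NCBI gene 17523, chromosome 11, 87793784 to 87804412, plus strand, 14 exons) showed the clearest difference of the abundant granule genes. Its FPKM was 444 and 403 in the WT-labelled libraries and 1427 and 925 in the CD274-null-labelled pair. The lower of the latter was 2.08 times the higher of the former, so the groups did not overlap. Means were 423 ± 29.5 (SD, n = 2) and 1176 ± 355 (SD, n = 2), a 2.78-fold difference. On the log2 scale Mpo rose by 1.44 (SE 0.31, unadjusted p = 0.00319, adjusted p = 0.251 from limma). At least 10436 reads stood behind each value, a counting error of at most 0.979%, far below the spread between libraries. Mpo was called in 11 of 13 other settings and in 0 of the 4 fits that left out a library, where its log2 fold change stayed between 1.13 and 1.75 with an unadjusted p from 0.0105 to 0.0360 (limma, the group left with 1 library assumed to vary like the other).

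Nkg7 (NCBI gene 72310, chromosome 7, 43437138 to 43438246, plus strand, 4 exons) encodes a membrane protein of cytotoxic granules that myeloid progenitors also transcribe. It was the least abundant of the 10 genes in the WT-labelled libraries, at 32.4 and 11.7 FPKM, and had 67.2 and 85.7 in the CD274-null-labelled pair. The groups did not overlap, although the WT-labelled libraries differed from each other by 2.77 times. The means of 22.1 ± 14.6 and 76.5 ± 13.1 (SD, n = 2 each) stood 3.46-fold apart, a rise of 1.93 on the log2 scale (SE 0.46, unadjusted p = 0.00532, adjusted p = 0.269 from limma). Between 97 and 694 reads stood behind the values, a counting error of up to 10.2%. The call was lost without either CD274-null-labelled library, with a log2 fold change of 2.10 without replicate 1 and 1.75 without replicate 2 (limma). Nkg7 was called in 9 of 13 other settings, and not with equal medians, without a filter on low values, with eBayes without trend or without moderation of the variance (unadjusted p from 0.0117 to 0.120 in these 4, limma). Of 12 markers of cytotoxic lymphocytes, which express Nkg7, 2 were tested and 0 were called. Ccl5 had 0.975 and 1.85 FPKM under the label WT and 5.74 and 1.51 under the label CD274-null, and Cd247 had 2.97 and 2.94 under the label WT and at most 1.60 under the label CD274-null. The other 10 did not exceed 0.783 in any library, and the whole list summed to 4.32 and 5.78 against 10.4 and 3.84. Its part in the values of Nkg7 was not tested.

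**Figure D2:**
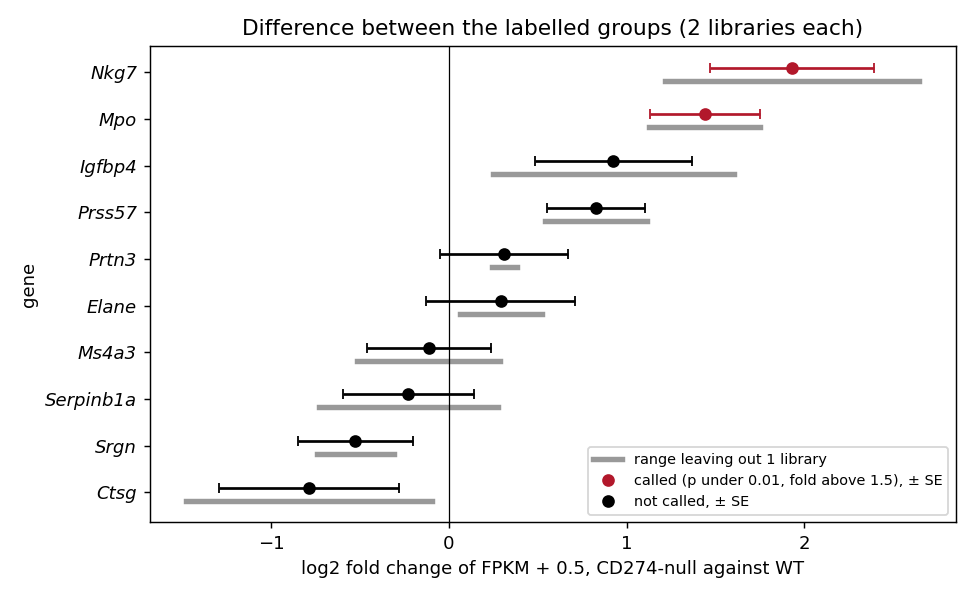
Log2 fold change of FPKM + 0.5 between the groups for each gene, with the standard error of limma (points with bars) and the range when each of the 4 libraries is left out in turn (grey). Mpo and Nkg7 (red) were called and keep positive values over the whole grey range, while the ranges of Ms4a3 and Serpinb1a cross 0.

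None of the 4 serine proteases was called. The log2 fold changes of Prss57, Prtn3 and Elane were above 0 and that of Ctsg was below 0. Elane (chromosome 10, 79886312 to 79888216, plus strand, 5 exons) had 3818 and 2780 FPKM in the WT-labelled libraries and 4673 and 3409 in the CD274-null-labelled pair, and the groups overlapped. Prtn3 (chromosome 10, 79879667 to 79883174, plus strand, 5 exons), 3138 bp from Elane, had 2823 and 2565 against 3394 and 3288. Prtn3 groups did not overlap, but its log2 fold change of 0.31 was smaller than its SE of 0.36 (adjusted p = 0.729 from limma). That of Elane was 0.29 (SE 0.42, adjusted p = 0.791 from limma), and it ran from 0.064 without WT replicate 2 to 0.52 without WT replicate 1. With a correction for GC content, the log2 fold changes of Elane and Prtn3 were 0.097 and 0.079.

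Ctsg (chromosome 14, 56099885 to 56102574, minus strand, 5 exons) had 1167 and 1712 FPKM in the WT-labelled libraries and 1322 and 507 in the CD274-null-labelled pair. The last value stands apart, 2.61 times below the other library of its group, and the groups overlapped. Its log2 fold change was -0.79 (SE 0.50, adjusted p = 0.524 from limma) and ran from -1.48 without CD274-null replicate 1 to -0.096 without CD274-null replicate 2. Monocyte markers did not move one way in that library. Fn1 and F13a1 were lowest there, at 11.7 and 24.2 FPKM, while Klf4 and Ly86 were highest there, at 64.1 and 74.7. The 10 listed monocyte markers summed to 289.7 and 437 FPKM under the label WT and to 274 and 256 under the label CD274-null, and their part in the value of Ctsg was not tested. Prss57 (chromosome 10, 79781474 to 79794684, minus strand, 6 exons) lies on the same chromosome as Elane and Prtn3 but at a far lower level, 47.3 and 31.6 FPKM against 60.4 and 78.9. Its groups did not overlap, with a log2 fold change of 0.83 (SE 0.28, unadjusted p = 0.0227, adjusted p = 0.313 from limma), and it was called only without WT replicate 1 (log2 fold change 1.12). The RefSeq extent of Prss57 overlaps Fstl3 by 1157 bp and Palm by 1113 bp, and the library kit does not mark strand, so reads in those stretches cannot be told apart. The same holds for Mpo, which overlaps the long noncoding RNA Gm34064 by 1435 bp, and for Srgn, which overlaps Gm51804 by 17267 bp. These extents include introns, and the overlap of exons was not measured. Values for Gm34064 and Gm51804 were not analysed here.

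Among the proteins that store, restrain or accompany the enzymes, none was called. Srgn (chromosome 10, 62493833 to 62527445, minus strand) had 1306 and 1767 FPKM in the WT-labelled libraries and 1175 and 947 in the CD274-null-labelled pair. It was the only one of the 10 genes whose groups did not overlap with the lower values in the CD274-null-labelled libraries (log2 fold change -0.53, SE 0.33, adjusted p = 0.511 from limma), with -0.74 without WT replicate 1 and -0.31 without WT replicate 2. Serpinb1a (chromosome 13, 32842092 to 32853206, minus strand) had 512 and 254 against 338 and 281, and the 2 WT-labelled libraries enclosed the others. Its log2 fold change of -0.23 (SE 0.37) turned to 0.28 without WT replicate 1 and was -0.072 with the GC correction. Serpinb1a has close paralogues, Serpinb1b and Serpinb1c, at 1.03 to 2.24 and 1.72 to 4.65 FPKM, and the authors' counting could have split shared reads among them. Ms4a3 (chromosome 19, 11629499 to 11640851, minus strand), a membrane protein that marks the granulocyte-monocyte progenitor lineage, had 551 and 316 against 455 and 326. The groups overlapped, and its log2 fold change of -0.11 (SE 0.35) was positive without WT replicate 1 (0.29), without CD274-null replicate 2 (0.13) and with the GC correction (0.056).

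Igfbp4 (chromosome 11, 99040005 to 99052655, plus strand), which encodes a binding protein of insulin-like growth factors, had 36.4 and 48.2 FPKM in the WT-labelled libraries and 128 and 49.9 in the CD274-null-labelled pair. The groups did not overlap, but the nearest values of the groups were only 1.03 times apart, and the high mean came from CD274-null replicate 1. Its log2 fold change was 0.93 (SE 0.44, unadjusted p = 0.0804, adjusted p = 0.415 from limma), 0.25 without that library and 1.60 without CD274-null replicate 2, when it was called. Between libraries of the same group, the 10 genes had a median absolute log2 difference of 0.50 under the label WT and of 0.42 under the label CD274-null. Over 7300 tested genes averaging 10 FPKM or more, those medians were 0.30 and 0.23.

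Ratios of genes within a library do not depend on how libraries are scaled. Mpo was taken for these ratios after it had been called, and no test compared one ratio with another. The ratio of Mpo to Elane FPKM was 0.116 and 0.145 in the WT-labelled libraries and 0.305 and 0.271 in the CD274-null-labelled pair, with means of 0.131 ± 0.0201 and 0.288 ± 0.0240 (SD, n = 2 each). Prtn3 to Elane overlapped between the groups, at 0.739 and 0.923 against 0.726 and 0.964. Ctsg to Elane was 0.306 and 0.616 against 0.283 and 0.149, lower in both CD274-null-labelled libraries but spread by more than 1.5 times within each group. Mpo to Prtn3 was 0.157 in each WT-labelled library against 0.420 and 0.281. Mpo to Srgn was 0.340 and 0.228 against 1.21 and 0.977. An exact permutation test over the 4 libraries, two-sided, gave p = 0.333 for Mpo to Elane, Mpo to Prtn3, Mpo to Srgn and Ctsg to Elane and 1 for Prtn3 to Elane, and 0.333 is the smallest p that 2 libraries against 2 allow.

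**Figure D3:**
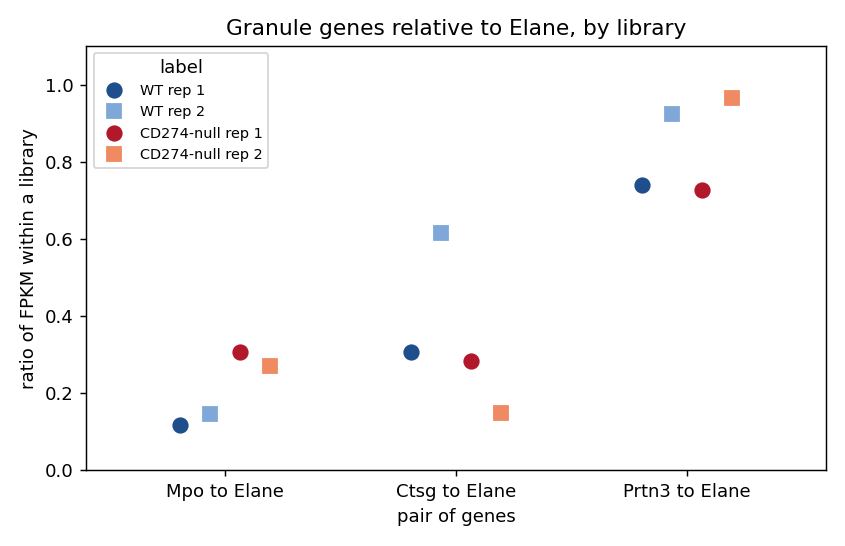
Ratio of the FPKM of Mpo, Ctsg and Prtn3 to that of Elane in each library. For Mpo the CD274-null-labelled libraries lie at 0.271 and 0.305, above 0.116 and 0.145 in those labelled WT, whereas for Prtn3 replicate 1 and replicate 2 of the groups lie side by side.

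Other genes of the pathway were taken from lists written by hand. Of 12 transcription factors of primary granule genes, 11 were tested and 0 were called, with 8 log2 fold changes above 0, 3 below 0 and a median of 0.21. Cebpe, which drives granule genes from the promyelocyte stage on, had 66.5 and 113 FPKM in the WT-labelled libraries and 136 and 203 in the CD274-null-labelled pair (log2 fold change 0.93, unadjusted p = 0.0306, adjusted p = 0.333 from limma). Myb had 192 and 277 against 318 and 368, and Cebpa 32.7 and 32.4 against 43.7 and 40.8, without overlap but also not called. Spi1, which encodes PU.1, had 356 and 332 against 271 and 260, also without overlap but lower, and was not called (log2 fold change -0.37). The largest difference in the list was that of Irf8, a factor of monocyte and dendritic cell fate, with 8.10 and 30.4 against 41.6 and 81.4 (log2 fold change 1.85, unadjusted p = 0.0239, adjusted p = 0.313 from limma), without overlap and not called.

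Of 20 other genes of azurophil granules and lysosomes, all tested, 1 was called, Cd68, a lysosomal membrane glycoprotein that rose from 51.5 and 58.1 FPKM to 86.9 and 113 (log2 fold change 0.85, adjusted p = 0.274 from limma) and was called in only 5 of 13 other settings and in 0 of the 4 fits without a library. The median over that list was -0.072. Lyz2, lysozyme, had 435 and 683 against 704 and 871 and was not called. Of 20 genes for granule assembly and protease processing, 19 were tested and 0 were called, with a median of -0.10. Ctsc, the cathepsin C that activates the granule serine proteases, had 26.4 and 22.0 FPKM against 21.1 and 31.2, so its groups overlapped. All 20 listed genes of granulocyte-monocyte progenitors were tested and 0 were called (13 above 0, median 0.31), with Plac8 at 1849 and 2031 against 2199 and 2131. In the families of single members, 0 of 7 tested serine protease inhibitors, 0 of 4 tested genes of the IGF system, 0 of 8 tested Ms4a genes and 0 of 1 tested haem peroxidase were called.

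A list named for the later granules, which are made after the promyelocyte stage, was read beside the 10 genes. The summed FPKM of its 16 secondary and tertiary granule genes was 50070 and 11811 in the WT-labelled libraries and 21845 and 33193 in the CD274-null-labelled pair. A few abundant genes dominate this sum. Among them are S100a8 and S100a9, which encode mainly cytosolic proteins, so the sum is not one of granule genes alone. WT replicate 1 stood highest, with S100a9 at 16802 FPKM against 3590 in WT replicate 2. Of the 16 genes, all tested, 1 was called, Olfm4, which fell from 1238 and 408 FPKM to 137 and 211 (log2 fold change -2.06, adjusted p = 0.274 from limma). Olfm4 was called in only 6 of 13 other settings and in 1 of the 4 fits that left out a library, the one without WT replicate 2. Ltf, lactoferrin, had 109 and 7.74 against 117 and 216. Of the 2 WT-labelled libraries, replicate 1 also had the higher value for 7 of the 10 genes, all but Ctsg, Srgn and Igfbp4. The part of the 16 listed genes in those values was not tested. Of 10 monocyte markers 9 were tested and 1 was called lower (Cd14), and of 13 macrophage markers 7 were tested and 1 was called lower (Vcam1). Cd14 was called in 7 of 13 other settings and Vcam1 in 9, and each in 1 of the 4 fits without a library. Of 9 eosinophil markers 5 were tested, of 9 mast cell and basophil markers 4, of 13 erythroid markers 3 and of 6 megakaryocyte markers 4, and 0 of these were called.

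**Figure D4:**
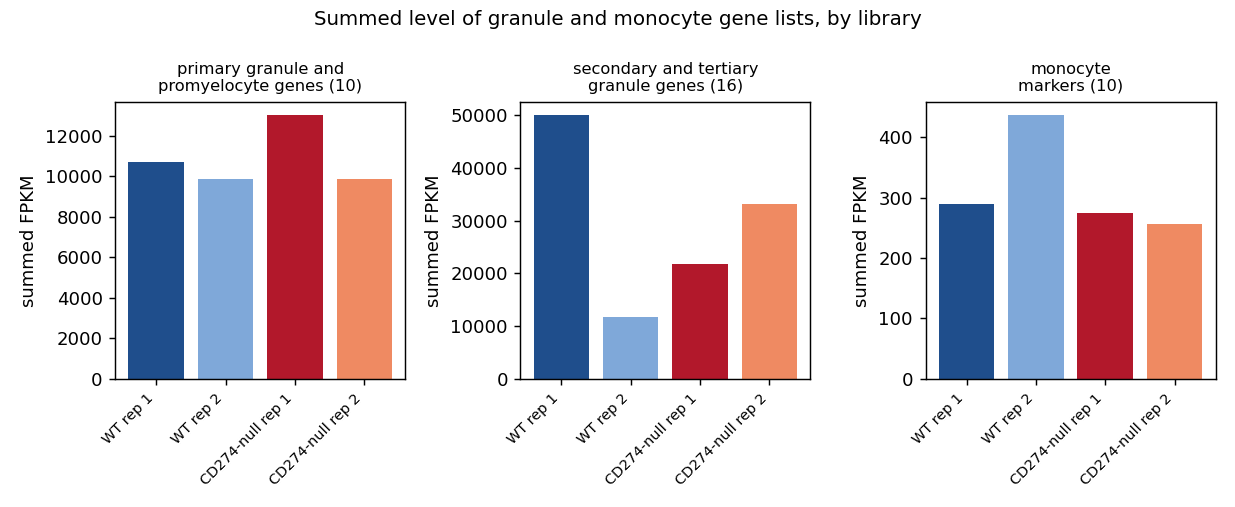
Bars from 0 give summed FPKM in each library. The panels hold the 10 primary granule and promyelocyte genes, 16 listed as secondary and tertiary granule genes, and 10 monocyte markers. S100a8 and S100a9 are among the 16. The first panel runs from 9888 to 13039, the second from 11811 to 50070 with WT replicate 1 highest.

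Because Elane, Prtn3 and Prss57 lie within a short stretch of chromosome 10 and Mpo lies beside Lpo and Epx on chromosome 11, the protein-coding neighbours of each gene were examined, 3 on each side. Of 52 distinct neighbours outside the list, 32 were tested and 5 were called, all higher, which is 15.6% against 3.63% of all tested genes. The median log2 fold change of the 32 was 0.36, and 25 were above 0. Their median transcript GC content was 53.5%, against 49.8% for tested genes, and log2 fold changes followed GC content across genes (Spearman's rho 0.271 over 11435 genes, which are not independent). After correction for GC content, the same 5 neighbours were called and their median was 0.30, against 0.014 over all genes. Without moderation of the variance 0 of the 5 were called. No test of neighbours as a set was made.

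Called genes lay near Mpo on its Tspoap1 side. Tspoap1, 7856 bp away, had 26.5 and 18.6 FPKM in the WT-labelled libraries and 87.1 and 67.9 in the CD274-null-labelled pair (log2 fold change 1.77, unadjusted p = 4.31e-04, adjusted p = 0.143 from limma). Rnf43, a ubiquitin ligase of Wnt receptors 58245 bp away on the same side, had 3.77 and 7.31 against 16.7 and 22.2 (log2 fold change 1.78, adjusted p = 0.251 from limma). The other peroxidase genes near Mpo were barely expressed, with Lpo at or below 1.62 FPKM and Epx, eosinophil peroxidase, at or below 2.76. On chromosome 10, 9 neighbours of Elane, Prtn3 and Prss57 were tested, with 7 log2 fold changes above 0, 2 below 0 (Ptbp1 and Med16) and 1 called. Plppr3, 4709 bp from Prtn3, had 69.8 and 56.5 FPKM against 97.4 and 97.3 (log2 fold change 0.63, unadjusted p = 0.0238, adjusted p = 0.313 from limma), and its log2 fold change was 0.40 after correction for GC content. The called gene was Fstl3, which overlaps Prss57 (log2 fold change 1.19). The others called were Top2a, 15806 bp from Igfbp4, and Siglecg, 18789 bp from Nkg7. Without CD274-null replicate 1, Siglecg alone of these 5 was called, and without CD274-null replicate 2, Tspoap1 alone. Fstl3 was also lost without WT replicate 2 and with the GC correction and replicate block together, and Top2a without WT replicate 2, without a filter on low values, with equal medians, with eBayes without trend and with voom.

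**Figure D5:**
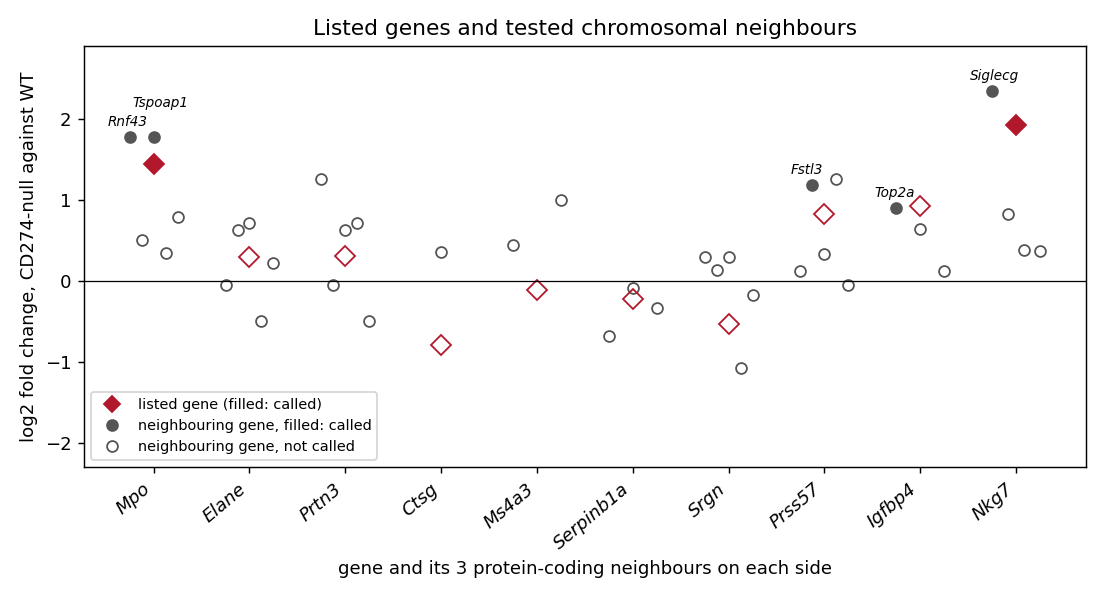
Log2 fold change of each listed gene (diamonds) and of its tested protein-coding neighbours, up to 3 on each side in chromosomal order (circles), with called genes filled. Tspoap1 and Rnf43 beside Mpo reach 1.77 and 1.78, and Siglecg beside Nkg7 reaches 2.35.

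Across the 6913 other tested genes that have a symbol and average 10 FPKM or more, likeness to a called gene was measured as the distance between log2(FPKM + 0.5) profiles centred on their means, over the 4 libraries. The profile nearest to Mpo was that of Wee1, the kinase that restrains entry into mitosis, with 5.33 and 4.83 FPKM in the WT-labelled libraries and 19.7 and 13.9 in the CD274-null-labelled pair (distance 0.195), followed by Mir5113 (0.244) and Snord95 (0.334). Nearest to Nkg7 were Snord87 (0.273), Cchcr1 (0.367) and Nfkbid (0.479). With 4 libraries such likeness is a description only.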

How the data were processed

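RNA-sequencing libraries (TruSeq v2, HiSeq2500) were aligned by the authors to GRCm38 with TopHat2 2.0.12, after CASAVA 1.8.2 per the submitters' processing notes, and 1 FPKM value per gene and library was deposited by the authors, not log transformed. The tool, gene lengths and strand setting behind FPKM are not given in the sources used here. Each column carried the title of its sample. Gene numbers were named from RefSeq GRCm38.p6 (25275 of 27179 matched). The members and lists were chosen with earlier results of these data known, and lists support nothing beyond their counts.

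Within a gene, FPKM were whole multiples of 1 read, so reads were recovered in lowest terms for 17083 of 17083 genes above 0 in at least 2 libraries (tolerance at most 0.05 read), with depths of 0.880, 0.764 and 0.861 relative to WT replicate 1. Printed reads are lower bounds, and counting errors cover counting only. log2(FPKM + 0.5) was fitted with limma 3.58.1 in R 4.3.3 (eBayes with trend) for genes of a mean FPKM of at least 0.5, with Benjamini-Hochberg adjustment, and only the thresholds of the call (p under 0.01, over 1.5-fold) are those of the study, whose test differs. On this scale changes of low genes are understated. On simulated reads for 13064 genes, 70.0% of 2-fold and 100% of 4-fold changes were called, 1.04% of unchanged genes, and 0 with the wrong sign. Every simulated gene was given the same dispersion. These shares need not hold for the 10 genes, which differed more within a group, in the median, than genes averaging 10 FPKM or more.

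Named genes were the 10 members, called genes of the lists, at most 4 uncalled genes per list that bear on a member, called neighbours, and the 3 nearest profiles of each called member. Xist, the Y-linked genes, Irf8, Lyz2, Plac8, Plppr3, Ptbp1 and Med16 were chosen after their values were seen. Proteins were not compared here. Alternatives were other pseudocounts (1 and 0.1), testing all genes, testing those averaging 5 FPKM or more, quantile normalization, equal medians, a TPM scale, eBayes without trend, no moderation, a replicate block and leaving out each library. Limma's voom and a GC correction (loess, span 0.3) were added after the data were seen. Python 3.11.15 was used for tables and figures.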

Additional observations from a re-analysis of the deposited data

How the results depend on the processing

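With 2 libraries per group and labels that Cd274 did not separate, each direction rests on the labels, and no adjusted p of the 10 genes came under 0.05 in any of the 17 other fits (lowest 0.133). Mpo and Nkg7 kept positive log2 fold changes in all of them. Without a filter on low values Mpo (1.44) and Nkg7 (1.93) were not called, which left 0 of the 10 genes called higher. Without moderation of the variance neither was called (1.44 and 1.93, 0 genes), and over all genes 119 were called higher and 51 lower. Nkg7 was not called with equal medians (1.91, 1 gene) or with eBayes without trend (1.93, 1 gene). With the GC correction, Ms4a3 turned to 0.056, also with the replicate block, and 200 genes in all were called higher, or 174 with the block, but only the 11435 tested genes with a GC value entered these fits, so the set of genes changed too. The causes were not tested.

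Over the other lists, 147 genes were tested, of which 4 were called higher and 3 lower, against 2.39% and 1.24% of all tested genes. The 4 higher were Cd68, Igkc, Jchain and Ighm. The higher count was 2 without moderation, 9 with the replicate block and 2 with the GC correction. The lower count was 1 without a filter, with quantile normalization, with equal medians and with the GC correction, 0 with eBayes without trend and without moderation, and 5 with the replicate block.

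Leaving out each library in turn gave log2 fold changes of 1.13 to 1.75 for Mpo, 1.21 to 2.64 for Nkg7, 0.54 to 1.12 for Prss57, 0.25 to 1.60 for Igfbp4, -0.51 to 0.29 for Ms4a3, -0.73 to 0.28 for Serpinb1a, -1.48 to -0.096 for Ctsg, 0.064 to 0.52 for Elane, -0.74 to -0.31 for Srgn and 0.24 to 0.38 for Prtn3. The number of the 10 genes called higher ran from 0 to 2, of all genes called higher from 117 to 388 and lower from 30 to 246, and of the other lists higher from 2 to 11 and lower from 0 to 10. Over all genes, 117 were called higher and 30 lower without CD274-null replicate 2, and 189 and 46 without CD274-null replicate 1. The highest list counts came without WT replicate 2.

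The replicate numbers pair nothing that the labels state, and differences between replicates 1 and 2 correlated across genes with r = -0.015 between the groups. With the replicate block 334 genes were called higher and 192 lower, against 316 and 164 without it, Mpo and Nkg7 among them.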
